A study of Homo sapiens with 6 samples.

Results

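Chemokines and cytokines are small secreted proteins through which cells of the immune system attract, activate and sustain each other. For this account 38 genes for such ligands were listed, and 37 of them could be read on the arrays, out of 19776 genes tested. They are CC and CXC chemokines, members of the interleukin 1 family, cytokines that share the receptor chain gp130 or belong to the interleukin 12 family, other interleukins and growth factors. CSF2, the gene for the growth factor GM-CSF, was not analysed here. Each ligand was read at 1 probe set, a group of short oligonucleotides that together report a transcript. Where several were annotated to it, alone or with other genes, the one with the highest log2 value averaged over the 6 arrays was used.

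The cells were of the established line MOLM-14, a human acute myeloid leukaemia that carries the MLL-AF9 rearrangement, grown in 12-well plates. The treated group received 25 nM cortistatin A (CA), a small-molecule inhibitor of CDK8 and CDK19, the kinases of the Mediator complex, for 3 h, and the control group received the solvent DMSO for 3 h. Each group had 3 samples, each on 1 Affymetrix U133 Plus 2.0 array, and nothing in the labels says that they came from separate cultures, so the p-values measure only how far these samples spread, and that spread may be technical. All results are from this single cell line. In such bulk RNA, fewer cells that make a transcript and less of it per cell cannot be told apart.

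Monocytes and their leukaemic counterparts are well known sources of these ligands. Chemokines bind G protein-coupled receptors and guide leukocytes along a gradient, interleukins and growth factors signal through receptor chains coupled to kinases, and many ligand genes are switched on within hours by NF-kB, by interferon regulatory factors or by STAT proteins. CXCL9, CXCL10 and CXCL11 are ligands of the receptor CXCR3, are induced by interferons and lie close together on chromosome 4.

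Of the 37 ligands, 2 rose with CA and 0 fell, with calls made in limma at a p under 0.05 after Benjamini-Hochberg adjustment over all genes. Those that rose were CXCL10, at 1.91-fold, and ARTN, which encodes the neurotrophic growth factor artemin, at 1.597-fold. Over all genes 0.839% were called higher and 0.0556% lower, against 5.41% and 0 among the ligands. The ligands were listed with earlier results of these data known, so this difference in shares is no test of the list. The other 35 were not called, and for 34 of the 37 the 95% confidence interval of the change lay within 1.5-fold in either direction, the exceptions being CXCL10, CXCL11 and ARTN. Of the 37, 22 lay below the array median on all 3 DMSO arrays. For such dim ligands the interval bounds the change in signal and may not bound that of the transcript. Ligands that monocytes release lay on both sides of the array median in DMSO, with CCL2, CXCL8 and IL6 below it and CCL5, IL1B and IL18 above it, and these 6 were not called.

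The results turn mainly on CXCL10, on its neighbours CXCL11 and CXCL9, and on ARTN, so the 250 bases before their start sites are shown with the matches to a few promoter motifs. RefSeq promoter windows of assembly GRCh38.p14 were found for 27 of the 37 ligands, 36 windows in all. The sequences shown lie at chr4:76023498-76023747 for CXCL10, chr4:76036071-76036320 for CXCL11 and chr4:76007510-76007759 for CXCL9, all on the minus strand, and at chr1:43933551-43933800 on the plus strand for ARTN. They run from 5′ to 3′ in the direction of the gene and end at the base before the start, and capitals mark a match on either strand.
CXCL10: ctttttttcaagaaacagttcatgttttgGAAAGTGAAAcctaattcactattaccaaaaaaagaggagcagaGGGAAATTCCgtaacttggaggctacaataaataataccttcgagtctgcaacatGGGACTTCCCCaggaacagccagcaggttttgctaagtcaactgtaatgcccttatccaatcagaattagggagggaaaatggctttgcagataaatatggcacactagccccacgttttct
CXCL11: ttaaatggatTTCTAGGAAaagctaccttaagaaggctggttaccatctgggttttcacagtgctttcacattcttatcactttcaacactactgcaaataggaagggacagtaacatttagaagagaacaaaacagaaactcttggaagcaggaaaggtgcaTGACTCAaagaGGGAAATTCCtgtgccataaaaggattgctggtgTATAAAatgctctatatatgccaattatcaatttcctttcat
CXCL9: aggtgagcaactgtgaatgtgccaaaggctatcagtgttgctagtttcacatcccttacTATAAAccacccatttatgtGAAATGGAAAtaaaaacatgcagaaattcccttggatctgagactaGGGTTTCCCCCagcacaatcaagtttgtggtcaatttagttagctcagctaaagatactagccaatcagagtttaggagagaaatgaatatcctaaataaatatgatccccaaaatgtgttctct
ARTN: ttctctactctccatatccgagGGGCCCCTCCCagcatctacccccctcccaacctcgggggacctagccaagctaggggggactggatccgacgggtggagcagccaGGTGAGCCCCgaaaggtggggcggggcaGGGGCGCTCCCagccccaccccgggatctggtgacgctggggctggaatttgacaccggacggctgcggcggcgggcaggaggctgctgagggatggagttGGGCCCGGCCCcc

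The motifs searched were GGGNNNNNCC for NF-kB, GAAANNGAAA for the interferon-stimulated response element, TTCNNNGAA for STAT, TGA and TCA with any 1 base between them for AP-1, TTGCNNAA for C/EBP and TATAAA for the TATA box. A match describes letters in the window and nothing about a factor. The CXCL10 window held the interferon motif as GAAAGTGAAA, from 221 to 212 bases before the start. It held the NF-kB motif as GGGAAATTCC from 177 to 168 bases before the start and as GGGACTTCCC from 122 to 113, the latter with overlapping matches on both strands. CXCL11 held GGGAAATTCC from 76 to 67 bases before its start, and elsewhere in the window matches to the AP-1, STAT and TATA box letters. CXCL9 held an interferon motif as GAAATGGAAA from 171 to 162 bases before the start and an NF-kB motif as GGGTTTCCCC. Its match to the TATA box letters lay from 191 to 186 bases before the start. The ARTN window held matches to GGGNNNNNCC alone, all rich in G and C. In these 4 windows no match to one motif overlapped a match to another.

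The interferon motif was in 3.02% of 35116 RefSeq windows of this length, and in 4 of the 36 ligand windows, those of CXCL10, CXCL9 and IL1RN. The NF-kB letters are loose, with 54.4% of all windows holding them, against 23 of the 36 ligand windows. The STAT, AP-1, C/EBP and TATA letters were in 6.57%, 6.57%, 9.05% and 10.7% of all windows, and in 4, 9, 4 and 11 of the 36 ligand windows.

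Where the ligands stood in the DMSO-treated control cells was judged against the median log2 value of each array, which lay between 5.03 and 5.08. Of the 37 ligands, 13 were above it on all 3 DMSO arrays, or 35.1%, against 61.6% of all genes tested, and 22 were below it on all 3. Probe sets differ in brightness for reasons other than abundance, so the position says where a probe set lay on the array and does not rank one ligand over another. The 13 were CCL5, IL18, IL1RN, TGFB1, ARTN, CCL23, OSM, IL16, IL23A, CCL22, IL1B, CSF1 and CXCL10. LIF was above the median on 2 DMSO arrays and CXCL16 on 1. With the median of the 19776 genes as the line, or with a line 1 log2 unit higher, 7 ligands were above it.

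**Figure D1:**
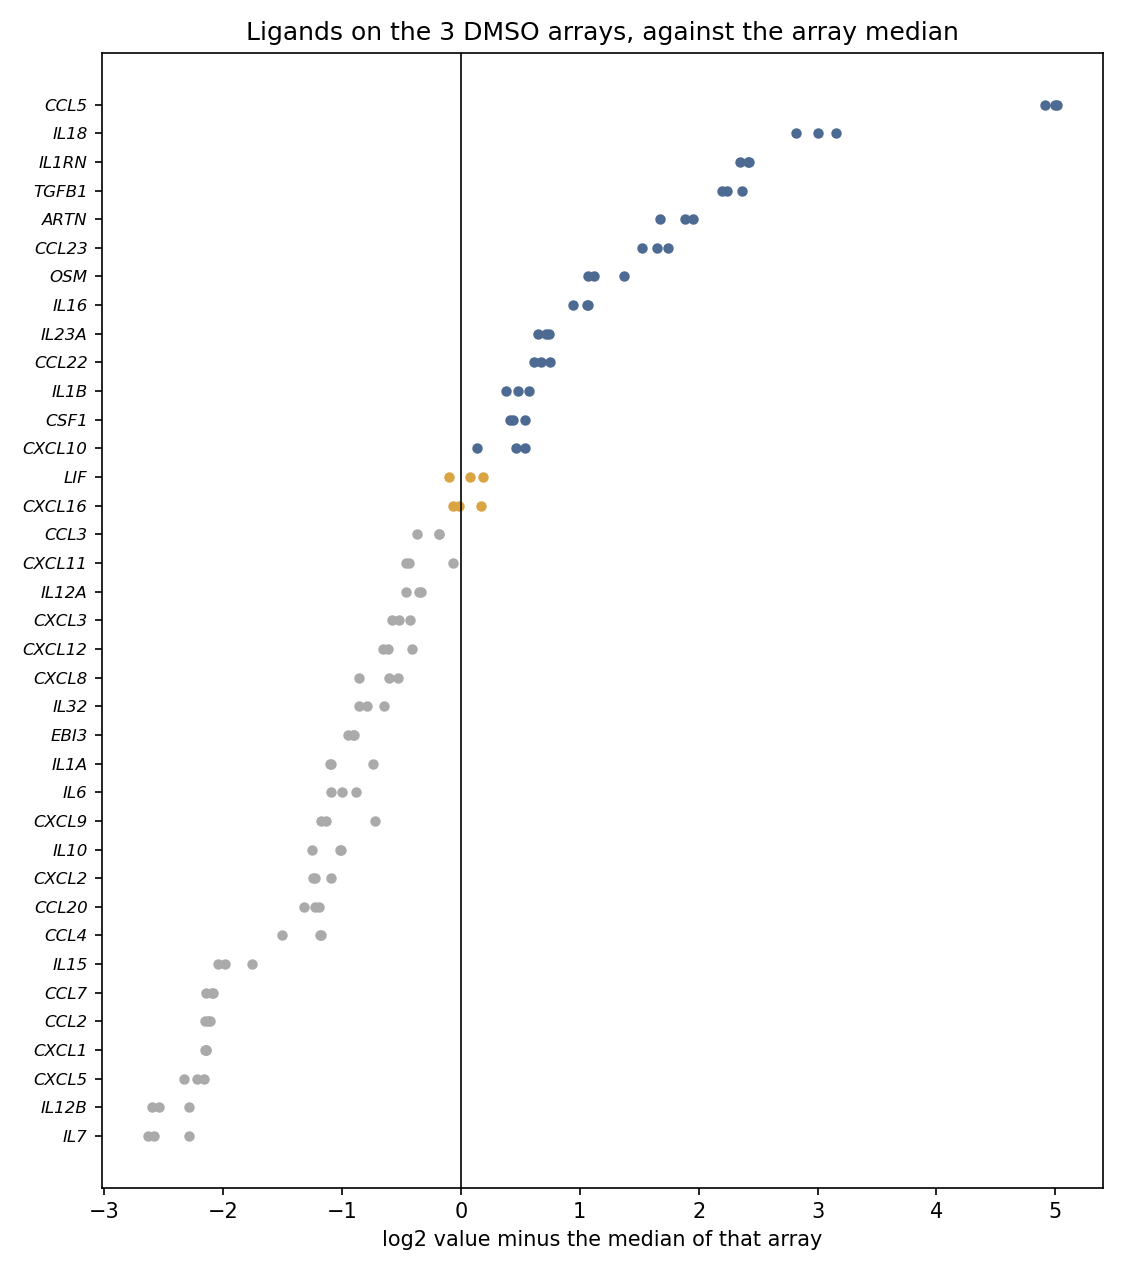
Log2 value of each of the 37 ligands on the 3 DMSO arrays minus the median of all probe sets on the same array (x axis), 1 point per array and 1 row per ligand. The 13 ligands in blue were above the median on all 3 arrays, the 2 in yellow on some, and the 22 in grey on none.

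CXCL10 encodes a chemokine that draws T cells and NK cells through CXCR3. Its log2 value was 5.62, 5.51 and 5.21 in DMSO and 6.19, 6.46 and 6.48 in CA. Every CA value lay above every DMSO value, and the lowest DMSO array, replicate 3, was close to the array median. The means were 5.44 ± 0.21 and 6.37 ± 0.16 (SD, n = 3 each), a log2 change of 0.93 with a 95% confidence interval of 0.63 to 1.24 (limma adjusted p = 0.0332). It has a single probe set.

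CXCL11 encodes another CXCR3 ligand. Its log2 values were 4.64, 4.97 and 4.61 in DMSO and 5.37, 5.23 and 4.82 in CA. The groups overlapped, because DMSO replicate 2 was above CA replicate 3. The log2 change was 0.40, with an interval of 0.0035 to 0.79 (limma adjusted p = 0.429), so CXCL11 was not called. Its second probe set gave a change of 0.42, from 4.30, 4.55 and 4.46 in DMSO to 4.92, 4.94 and 4.71 in CA, with no overlap. That probe set was not called over all probe sets either (limma adjusted p = 0.247), and both probe sets lay below the array median on each DMSO array.

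CXCL9, the third CXCR3 ligand of the group, had log2 values of 3.94, 3.86 and 4.35 in DMSO and 4.004, 4.22 and 4.15 in CA, a change of 0.075 with an interval of -0.245 to 0.40. It was dim on all 6 arrays. The difference between CXCL10 and CXCL9 on the same array was 1.39 ± 0.46 in DMSO and 2.25 ± 0.07 in CA (SD, n = 3 each), so the log2 change of CXCL10 was 0.86 larger. In an exact two-sided permutation test this had p = 0.1, the smallest that 3 against 3 arrays can give, or 0.3 after adjustment over the 3 pairs. CXCL10 and CXCL11 differed by 0.53 in their change (exact permutation p = 0.2, adjusted 0.3), and CXCL11 and CXCL9 by 0.32 (exact permutation p = 0.5, adjusted 0.5). These pairs were chosen after the values were seen. Since this test cannot pass 0.05 with 3 arrays per group, it shows neither equal nor unequal change. The limma intervals of CXCL10 and CXCL9 given above do not overlap, while that of CXCL11 overlaps both. These are unadjusted intervals of single genes, so they do not test the pairs either.

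**Figure D2:**
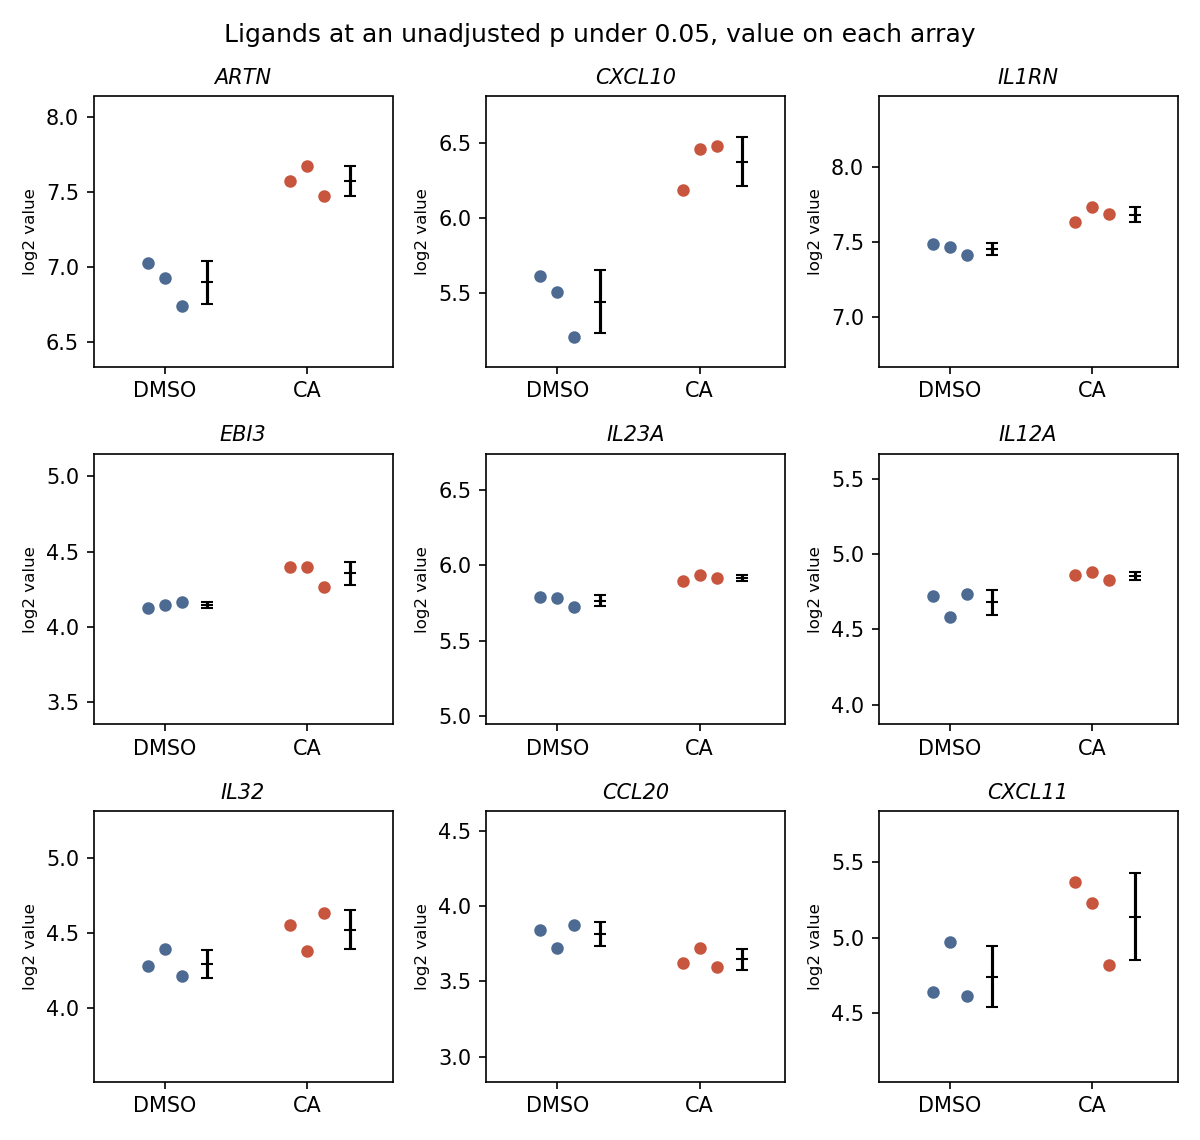
Log2 value of the 9 ligands with an unadjusted limma p under 0.05 on each DMSO array (blue) and CA array (red), replicates 1 to 3 from left to right, with the mean ± SD of each group (n = 3) in black. All panels span the same range of log2 units. The groups of CXCL10 and ARTN stand furthest apart, at 5.21 to 5.62 against 6.19 to 6.48 and at 6.74 to 7.03 against 7.47 to 7.68.

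ARTN encodes artemin, a member of the GDNF family that signals through the receptor tyrosine kinase RET with the co-receptor GFRA3. Its log2 values were 7.03, 6.93 and 6.74 in DMSO and 7.57, 7.68 and 7.47 in CA. The groups did not overlap, and both lay well above the array medians. The means were 6.90 ± 0.14 and 7.57 ± 0.10 (SD, n = 3 each), a log2 change of 0.68 with a 95% confidence interval of 0.46 to 0.89 (limma adjusted p = 0.0307).

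The size of the ARTN change depended on the probe set. The other 2 gave log2 changes of 0.12 and 0.16, each with overlapping groups and neither called over all probe sets (limma adjusted p = 0.701 and 0.673). With the mean of its 3 probe sets the change was 0.32 (limma adjusted p = 0.0822). The 2 probe sets with the smaller changes carry the _x_at suffix, which Affymetrix gives to sets whose probes can match other sequences. Whether this bears on the size of their changes was not tested.

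Both calls also rested on all 6 arrays. Left out in turn, each of the arrays of DMSO replicates 1, 2 and 3 and of CA replicates 1, 2 and 3 ended them. The count called over all genes fell as well, from 177 to 112 without CA replicate 3 and to between 1 and 9 in the other fits. Limma adjusted p lay between 0.0882 and 0.146 for CXCL10 and between 0.0596 and 0.137 for ARTN, with log2 changes of 0.81 to 1.03 and 0.60 to 0.74. CA replicate 3 stood apart from the other arrays on the first principal component of all genes, and without it CXCL10 had a log2 change of 0.88 and ARTN one of 0.73. When all 54613 probe sets were fitted together, each had an adjusted p of 0.0581.

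At an unadjusted limma p under 0.05, 8 ligands were higher in CA, or 21.6%, against 7.09% of all genes, and 1 was lower, or 2.70%, against 4.5%. With a robust fit that follows an intensity trend these counts were 5 and 0, and among the 13 ligands left without dim genes they were 4 and 0. The shares of all genes in those fits were not counted, so these numbers have no background beside them. The ligands were listed with earlier results of these data known, so their shares against all genes are description and no test. The 3 CA values lay above the 3 DMSO values in 6 ligands, or 16.2%, against 11.8% of all genes, and below them in 0, against 7.53%. The median log2 change was 0.027 among the ligands and 0.0038 over all genes, and 23 of the 37 changes were above 0. Beside CXCL10, CXCL11 and ARTN, the higher ones were IL1RN, EBI3, IL23A, IL12A and IL32, and the lower one was CCL20. None of these 6 was called, with adjusted p between 0.131 and 0.376 in limma.

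**Figure D3:**
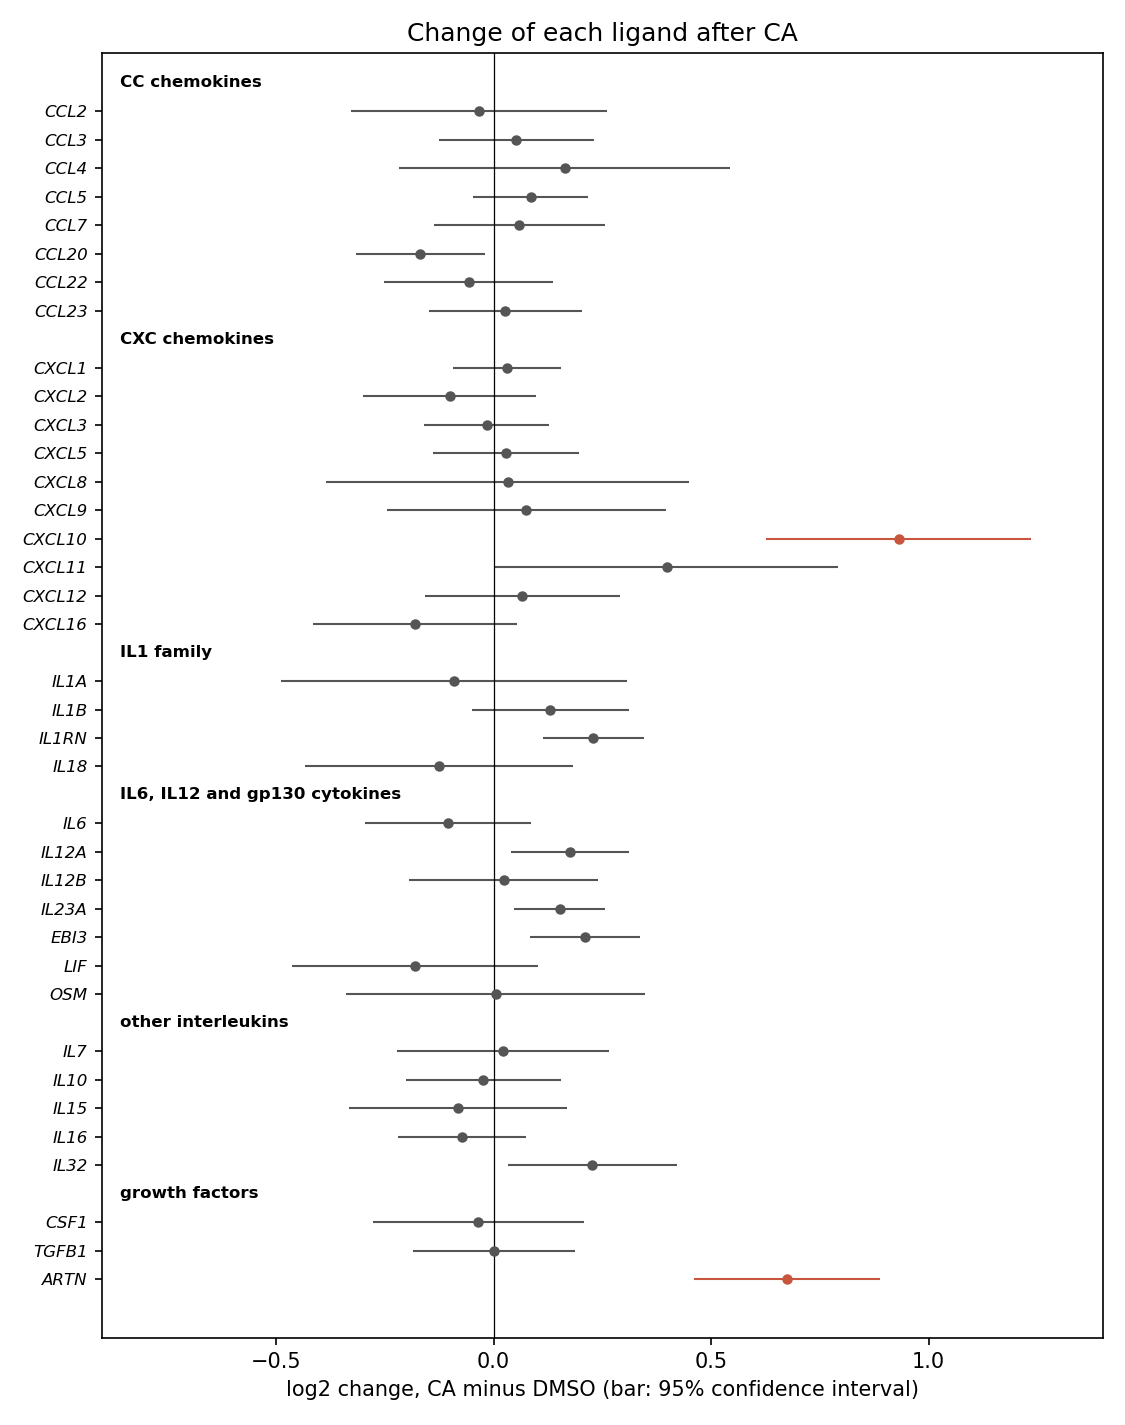
Log2 change of each of the 37 ligands, CA minus DMSO, with its 95% confidence interval from limma (3 arrays per group), ordered by family. CXCL10 at 0.93 and ARTN at 0.68 (red) were called. The other points lie between -0.18 and 0.40.

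Among the CC chemokines, 0 of 8 were called in limma, with CCL20 the 1 lower at an unadjusted p under 0.05. CCL5, which attracts T cells and monocytes, was well above the array median, at 10.07, 10.06 and 9.98 in DMSO and 10.15, 10.17 and 10.04 in CA. Its groups overlapped, and the log2 change was 0.085 (-0.047 to 0.22). Of its other 2 probe sets, 1 gave 0.02, with overlap. The other gave 0.18, from 8.96, 8.96 and 8.99 in DMSO to 9.19, 9.06 and 9.21 in CA, with no overlap. That probe set was not called over all probe sets (limma adjusted p = 0.491). CCL23, a chemoattractant of monocytes, read 6.81, 6.69 and 6.60 in DMSO and 6.72, 6.65 and 6.82 in CA. CCL22, a ligand of CCR4, read 5.75, 5.80 and 5.69 against 5.63, 5.57 and 5.85. Neither of the last pair was separated between the groups.

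CCL20, the ligand of CCR6, was dim, at 3.85, 3.73 and 3.88 in DMSO and 3.62, 3.73 and 3.60 in CA. DMSO replicate 2 and CA replicate 2 had nearly the same value, and the log2 change was -0.17 (-0.32 to -0.020, limma adjusted p = 0.376). CCL2 and CCL7, monocyte attractants that bind CCR2, had log2 changes of -0.033 and 0.059 at values near 3. The DMSO values of CCL2 were 2.94, 2.94 and 2.92, while those in CA were 2.65, 3.16 and 2.89 and so spread further. CCL3 and CCL4, which attract monocytes and T cells, had changes of 0.052 and 0.16. The probe set of CCL3 is also annotated to its near copies CCL3L1 and CCL3L3, which it cannot tell apart.

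Among the 10 CXC chemokines, CXCL10 alone was called. The neutrophil attractants CXCL1, CXCL2, CXCL3, CXCL5 and CXCL8 share the receptor CXCR2, and all were below the array median on each DMSO array. Their log2 changes were 0.032, -0.10, -0.016, 0.028 and 0.032. CXCL8, which encodes interleukin 8, was the most variable of these, at 4.22, 4.51 and 4.47 in DMSO and 4.67, 4.04 and 4.57 in CA. Its interval of -0.38 to 0.45 leaves room for a change in this dim signal of up to about 1.37-fold, and its second probe set gave 0.099. CXCL12, which retains blood cell precursors in the marrow through CXCR4, changed by 0.066 (-0.16 to 0.29). CXCL16, a membrane-bound chemokine, read 5.002, 5.21 and 5.05 in DMSO and 4.79, 4.84 and 5.10 in CA, so that CA replicate 3 overlapped the controls.

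In the interleukin 1 family IL1RN had the smallest p, and 0 of 4 were called in limma. IL1RN encodes the antagonist that blocks the interleukin 1 receptor. It read 7.49, 7.47 and 7.41 in DMSO and 7.63, 7.73 and 7.69 in CA, with no overlap and little spread. The log2 change was 0.23 (0.11 to 0.35, limma adjusted p = 0.131), or 1.17-fold. Its other 4 probe sets gave -0.034, -0.13, -0.044 and -0.022, and the mean of all 5 gave no net change. Tested only among genes brighter than the array median, IL1RN passed (limma adjusted p = 0.0457).

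The agonists of that receptor did not separate. IL1B, the main secreted form, read 5.65, 5.42 and 5.55 in DMSO and 5.69, 5.74 and 5.58 in CA, a change of 0.13 (-0.051 to 0.31), and its second probe set gave -0.019. IL1A read 3.98, 4.31 and 3.98 in DMSO and 4.08, 3.66 and 4.25 in CA, so that CA replicate 2 held the lowest value of all. IL18, of the interleukin 1 family, primes interferon gamma production. It was bright, at 8.07, 8.20 and 7.89 in DMSO and 8.07, 8.04 and 7.67 in CA. Replicate 3 was the lowest in each group, and the change was -0.13 (-0.43 to 0.18).

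The interleukin 12 family is built from shared subunits. EBI3, the beta chain of interleukins 27 and 35, read 4.13, 4.15 and 4.16 in DMSO and 4.40, 4.40 and 4.27 in CA, with no overlap, at values below the array median. Its change was 0.21 (0.083 to 0.34, limma adjusted p = 0.205). IL12A, the p35 chain of interleukin 12, read 4.72, 4.58 and 4.74 in DMSO and 4.86, 4.88 and 4.83 in CA, also apart, with a change of 0.18 (limma adjusted p = 0.320). IL23A, the p19 chain of interleukin 23, read 5.79, 5.78 and 5.72 in DMSO and 5.90, 5.94 and 5.92 in CA, a change of 0.15 (limma adjusted p = 0.267). These groups were apart by little, and 4 other probe sets of IL23A gave between -0.13 and 0.08.

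IL12B, the p40 chain that pairs with both IL12A and IL23A, was far below the array median, at 2.78, 2.50 and 2.47 in DMSO and 2.57, 2.67 and 2.58 in CA. The log2 change was 0.023 (-0.195 to 0.24). None of these 4 chains was called, and the groups of the shared p40 chain overlapped.

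Cytokines that signal through gp130 were not called. IL6 read 4.07, 3.95 and 4.19 in DMSO and 3.86, 4.01 and 4.03 in CA, below the median on all arrays. LIF, which keeps stem cells undifferentiated in culture, read 5.15, 5.23 and 4.97 against 4.71, 4.99 and 5.11, a change of -0.18 (-0.46 to 0.10). OSM, oncostatin M, read 6.15, 6.17 and 6.44 in DMSO and 6.03, 6.21 and 6.53 in CA. Replicate 3 was the highest OSM value in each group, and the change was 0.0047 (-0.34 to 0.35).

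Of the other interleukins, 0 of 5 were called in limma. IL32, an inducer of TNF in monocytes, read 4.28, 4.39 and 4.21 in DMSO and 4.55, 4.38 and 4.63 in CA, with DMSO replicate 2 just above CA replicate 2. The change was 0.23 (0.033 to 0.42, limma adjusted p = 0.362). IL16, a ligand of CD4, was above the median, at 6.13, 6.12 and 6.01 in DMSO and 5.99, 5.94 and 6.10 in CA. The lymphocyte growth factors IL7 and IL15 and the anti-inflammatory IL10 had changes of 0.022, -0.081 and -0.024, at DMSO means of 2.56, 3.13 and 3.97.

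Of the growth factors, CSF1 and TGFB1 were above the median and not called. CSF1, which sustains monocytes and macrophages, read 5.48, 5.48 and 5.61 in DMSO and 5.40, 5.36 and 5.71 in CA, a change of -0.035 (-0.28 to 0.21). TGFB1, which restrains immune cells and is secreted in a latent form, read 7.43, 7.28 and 7.27 in DMSO and 7.46, 7.29 and 7.24 in CA. The groups of TGFB1 overlapped throughout, and the change was 0.0012 (-0.19 to 0.19).

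Across the 17 ligands with more than 1 probe set, the choice of probe set mattered most for ARTN, IL1RN and IL23A. Of 67 ligand probe sets, 30 were not the ones used. CXCL11 was the ligand whose probe sets were closest to each other at a sizeable change, at 0.40 and 0.42.

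**Figure D4:**
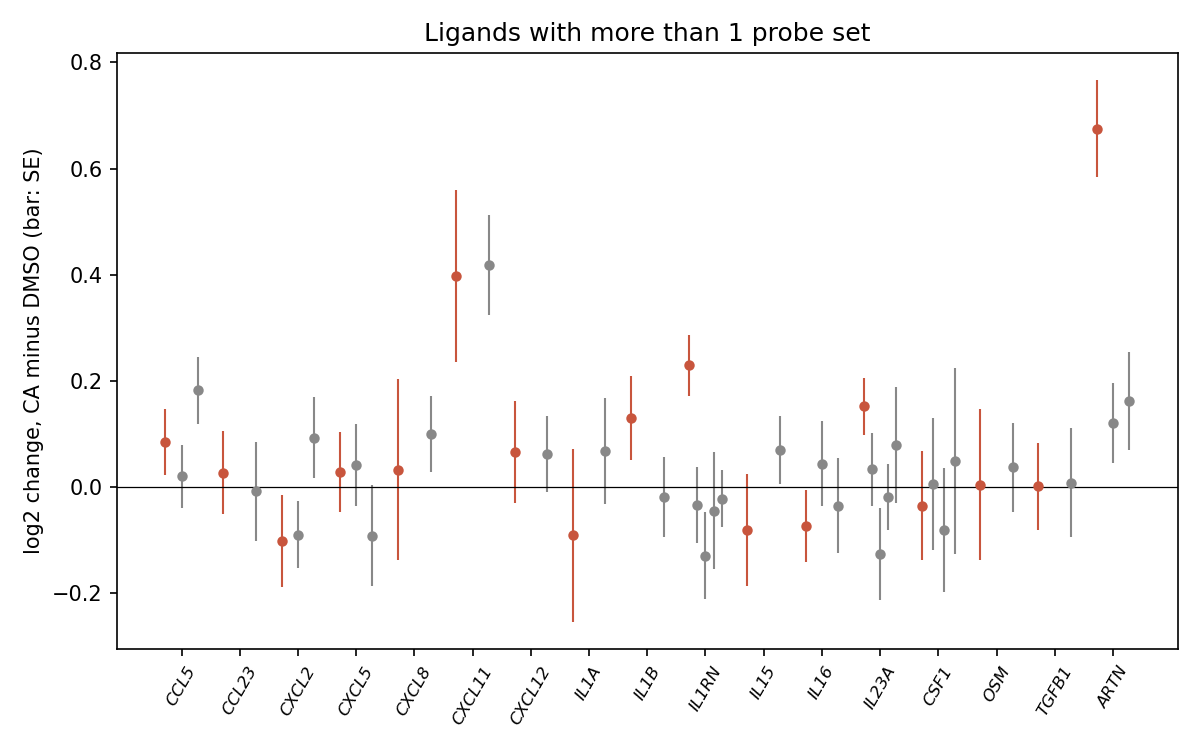
Log2 change, CA minus DMSO, of every probe set of the 17 ligands with more than 1, with its standard error from limma over all probe sets (3 arrays per group). Red marks the probe set used and grey the others. ARTN at 0.68 against 0.12 and 0.16, and IL1RN at 0.23 against -0.13 to -0.022, differ between probe sets.

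Receptors for these ligands were read in the same fit. Of 42 listed, 40 were measured, of which 4 rose and 0 fell in limma, or 10.0% and 0, against 0.839% and 0.0556% of all genes. Before adjustment 9 were higher and 2 lower at a p under 0.05, or 22.5% and 5.0%, against 7.09% and 4.5%. The receptor list was also chosen with earlier results of these data known. CCR2, the receptor of CCL2 and CCL7, rose by 0.97 on the log2 scale (adjusted p = 0.00546), with 0.25 at its dim second probe set. CCR1, a receptor of CCL3, CCL5 and CCL23, rose by 0.59 (adjusted p = 0.0201), with 0.56 at its second probe set. CXCR4, the receptor of CXCL12, rose by 0.44 (adjusted p = 0.0307), and IL1RAP, the accessory chain through which interleukin 1 signals, rose by 0.31 (adjusted p = 0.0421). Of these, CCR1 and IL1RAP lost the call whichever array was left out. The count called over all genes also fell in those fits, from 177 to between 1 and 112. CCR2 was called in 3 of the 6 fits with an array left out, those without DMSO replicate 2, CA replicate 2 or CA replicate 3, and CXCR4 in the 1 without CA replicate 3.

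For the ligands that rose, receptor transcripts were not called. CXCR3 had a log2 change of -0.016 (-0.15 to 0.11) from a mean of 5.53, and its second probe set gave 0.17. RET was bright, at 11.56, 11.60 and 11.56 in DMSO and 11.71, 11.73 and 11.74 in CA. Its groups were apart, with a change of 0.15 (0.051 to 0.25, limma adjusted p = 0.244), and its other probe sets gave 0.058 and 0.14. GFRA3 lay below the median in DMSO, and its 2 probe sets gave 0.044 and -0.27.

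Ligand genes outside the list were also counted. Of 51 other chemokine and cytokine ligands measured, 0 were called in limma, with 1 higher and 3 lower where p was under 0.05 before adjustment. These are 1.96% and 5.88%, against 7.09% and 4.5% of all genes, and their median log2 change was -0.017. The higher was CXCL14, at 0.21, and the lower were NRTN at -0.43, IL36G at -0.18 and IL17A at -0.17, with the last 3 dim in DMSO. NRTN encodes neurturin, a relative of artemin. That the 37 listed ligands differ from these 51 was not tested.

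Genes that release or process cytokines, and a list around NF-kB, gave 1 call each, both higher. These are 5.0% and 6.25% of the measured genes, against 0.839% of all genes called higher. Both lists were chosen with earlier results of these data known. Of 20 genes of processing and release, NRROS, which tethers latent TGF-beta on myeloid cells, rose by 0.45 (limma adjusted p = 0.0290), and at an unadjusted p under 0.05 the list had 4 higher and 0 lower, or 4 of the 20 and 0, against 7.09% and 4.5% of all genes. FURIN, a protease that matures TGF-beta, and NLRP3, an inflammasome sensor upstream of IL1B and IL18, had changes of 0.33 and 0.21 (limma adjusted p = 0.148 and 0.173). In a list of 16 NF-kB subunits, NF-kB inhibitors and mRNA-decay proteins of the ZFP36 family, TNFAIP3, a feedback inhibitor, rose by 0.43 (limma adjusted p = 0.0178), and the list had 4 higher and 3 lower at p under 0.05 before adjustment, or 25.0% and 18.8%, against the same 7.09% and 4.5%. The decay proteins ZFP36L2 and ZFP36 had log2 changes of 0.22 and -0.15 (limma adjusted p = 0.0940 and 0.268). NFKBIA, which holds NF-kB in the cytoplasm, had 0.22 and the subunit RELB -0.24 (limma adjusted p = 0.146 and 0.272). NRROS lost its call whichever array was left out, and TNFAIP3 kept it in the fit without CA replicate 3 only. Over all genes the count called in those fits fell from 177 to between 1 and 112.

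Markers were read to check the cells. Of 8 measured myeloid and monocyte markers, 5 were above the array median in all 3 DMSO arrays. They were LYZ at 12.46, ITGAM at 7.49, MPO at 6.32, CSF1R at 5.81 and SPI1 at 5.49. CD14 at 3.80 and FCGR1A at 4.90 were below it, and CD86 at 5.02 was above it on 1 array. The share of these 8 above it on all 3 arrays, 62.5%, is close to the 61.6% of all genes tested. For other lists it was 4 of 5 B cell, 5 of 6 erythroid and megakaryocyte, 4 of 10 epithelial and fibroblast and 3 of 6 endothelial markers. These lists do not set the myeloid markers apart. The mean log2 value of the 8 myeloid markers lay between 6.35 and 6.48 in DMSO and between 6.44 and 6.56 in CA. Other markers were 10 of T and NK cells, 5 of B cells and 6 of erythroid cells and megakaryocytes. There were also 10 of epithelium and fibroblasts and 6 of endothelium. Of these other markers, 0 were called but for PECAM1, at 0.41, a gene that leukocytes also express. With an array left out, PECAM1 was called only without CA replicate 3, where 112 genes in all were called. The T and NK cell markers averaged 5.09 to 5.15 in DMSO and 5.04 to 5.29 in CA, and 4 of these 10 lay above the array median on all 3 DMSO arrays, namely NCAM1 at 9.30, NKG7 at 7.63, GNLY at 5.56 and CD3D at 5.20. CD3G, CD2, CD8A and TRAT1 had DMSO means of 2.31 to 3.997. The ranges of all these lists, the myeloid one included, overlapped between the groups. The part of T and NK, B, erythroid, epithelial and endothelial cells in the ligand values was not tested.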

How the data were processed

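Total RNA (100 ng per sample) was labelled and hybridised, per the labels' protocols, which name either of 2 RNA isolation reagents without saying which sample had which. The authors deposited log2 values for each probe set. The submitters' processing notes name RMA and affy, with no version. RMA makes the arrays' distributions alike, so a shift common to every gene cannot be seen.

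Of 54675 probe sets, 62 controls were left out. Of the other 54613, the platform annotation gave 1 symbol to 41091, several to 1801 and none to 11721. Genes other than the ligands were read at their brightest probe set with 1 symbol. CA was compared with DMSO in limma 3.58.1 (R 4.3.3; lmFit and eBayes, two-sided, no block), with Benjamini-Hochberg adjustment over 19776 genes and a threshold of 0.05. The steps were tested on simulated data. Precision is limited by 3 arrays per group.

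The ligands, lists, motifs and tests were chosen with earlier results of these data known. All values are given for ligands at an unadjusted p under 0.05 or above the array median. Other lists name their called genes, or else up to 3 with the smallest p. Genes and per-array values beyond that rule (CXCR3, GFRA3, RET, IL17A, markers, NF-kB and processing genes that were not called, and dim ligands given by array) were chosen after seeing them. Alternatives covered the variance model, array weights, dim genes, probe sets, scaling, thresholds, a block and each array left out.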

Additional observations from a re-analysis of the deposited data

How the results depend on the processing

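The count of ligands called higher was 2 in the fit reported. It was 0 to 0 over the 6 fits that left out 1 array, 0 with the replicate number as a block, 0 at an adjusted p under 0.01, 0 when all probe sets were fitted together (an alternative chosen after seeing the data), and 1, CXCL10, with the mean of a gene's probe sets. It was 2 or 3 under the other alternatives. The count of ligands called lower was 0 under every alternative run. Over the 15 alternatives the log2 changes of CXCL10 and ARTN lay between 0.81 and 1.03 and between 0.32 and 0.74. Several alternatives leave the group means as they were. With the groups apart, leaving out 1 array cannot turn the sign, so the upward sign throughout is no added support. CXCL10 and ARTN passed in 7 and 6 of the alternatives. Adjusted p-values from limma ranged from 0.00112 to 0.159 and from 0.000781 to 0.137. The count of genes called was 177, and became 1 to 112 with an array left out, 6 with the replicate block, 546 with a robust fit that follows an intensity trend, 351 without dim genes, 74 without probe sets of the suffixes _x_at, _s_at and _a_at, 25 at 0.01 and 314 at 0.10. With the block, adjusted p was 0.159 for CXCL10 and 0.0716 for ARTN; the labels do not say that the numbers pair the samples. Deviations from the group means correlated at 0.041, 0.22 and 0.25 between same-numbered arrays, and CA replicate 1 correlated best with DMSO replicate 2. The ligands above the median in DMSO numbered 13, or 7 with the median of the genes or a line 1 log2 unit higher. Without dim genes only 13 ligands were tested, and without the suffixed probe sets 31. The cause of the other differences was not tested. Signal near the bottom of the array limits what can be said of the 22 dim ligands.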
